A study of Mus musculus with 3 samples.

Results

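The 4 receptors that bind fibroblast growth factors (FGFs) and 6 genes that FGF signaling is known to switch on were followed through the cell types of the embryonic mouse soft palate. The members were Fgfr1, Fgfr2, Fgfr3 and Fgfr4 (the receptor tyrosine kinases), Spry1, Spry2 and Spry4 (Sprouty inhibitors of the pathway), Dusp6 (the phosphatase that turns off ERK), and Etv4 and Etv5 (ETS transcription factors of the PEA3 group). They were picked by symbol, so that 10 of the 32285 genes in the deposited tables are described, and all 10 were found. No rule on values measured here picked them, though earlier results of these data were known when they were chosen. None of them served to gate a cell type.

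Soft palates were taken at E14.5 from C57BL/6 mice in 2 groups. The mutant, Osr2-Cre;Alk5fl/fl (Alk5 is Tgfbr1, the type I TGF-β receptor), was sequenced as 1 library, and control embryos as 2 libraries, here called control 1 and control 2. Per the figure legends of the study, controls were Tgfbr1 fl/fl or Tgfbr1 fl/+ littermates, so the controls carry floxed alleles too. Osr2-Cre recombines in palatal mesenchyme and, by the study's reporter staining, not in the myogenic cells, so that the deletion is directed to the mesenchyme and not to the muscle precursors. How many embryos went into a library is not given in the sources used here. Unless stated otherwise, p-values below rest on how differences between cell types vary between these libraries, the mutant included. That spread is estimated over all cell types in a fit and may be technical.

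FGF ligands bind a receptor together with heparan sulfate, and the activated receptor signals largely through the adaptor FRS2 to RAS and the ERK kinases. ERK signaling induces its own brakes, among them the Sprouty proteins and Dusp6, and the transcription factors Etv4 and Etv5, so that transcripts of these genes are widely used as readouts of FGF activity, although other receptor tyrosine kinases induce them too. Fgfr1 and Fgfr2 are known from the mesenchyme and the epithelium of the palate, Fgfr3 from cartilage and bone, and Fgfr4 from embryonic muscle precursors.

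The genes lie, in GRCm38 (mm10), on chromosome 8 from 25513654 to 25575718 for Fgfr1 (ENSMUSG00000031565), on chromosome 7 from 130162451 to 133123350 for Fgfr2 (ENSMUSG00000030849), on chromosome 5 from 33721674 to 33737068 for Fgfr3 (ENSMUSG00000054252) and on chromosome 13 from 55152640 to 55168759 for Fgfr4 (ENSMUSG00000005320). Spry1 (ENSMUSG00000037211) lies on chromosome 3 from 37639947 to 37644598 and Spry2 (ENSMUSG00000022114) on chromosome 14 from 105891947 to 105896819. Dusp6 (ENSMUSG00000019960) is on chromosome 10 from 99263231 to 99267489, Etv4 (ENSMUSG00000017724) on chromosome 11 from 101769742 to 101785371 and Etv5 (ENSMUSG00000013089) on chromosome 16 from 22381309 to 22439719. Each is annotated as protein coding.

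The promoters of 3 members are shown because the results below turn on these genes: Fgfr4, at its highest level in muscle cells, Spry1, which differed between muscle progenitors and myocytes, and Spry2, which was lower in the mutant library in most cell types. Each run is printed 5′ to 3′ on the gene's own strand, from RefSeq on GRCm38.p6. For Spry1 and Spry2 it covers the bases before the start of the gene given above and a short stretch after it. The Fgfr4 run begins before the gene start given above, but most of it, with both of its E-boxes, lies after that start. Capitals mark the E-box CANNTG, the letters bound by the MYOD family, in the first and the second, and CCGGAA, a core bound by ETS factors, in the third; both motifs were searched on both strands, and they do not overlap in these windows. Fgfr4 is read from chr13:55152568-55152867 on the + strand, Spry1 from chr3:37639697-37639996 on the + strand and Spry2 from chr14:105896770-105897069 on the - strand.
Fgfr4: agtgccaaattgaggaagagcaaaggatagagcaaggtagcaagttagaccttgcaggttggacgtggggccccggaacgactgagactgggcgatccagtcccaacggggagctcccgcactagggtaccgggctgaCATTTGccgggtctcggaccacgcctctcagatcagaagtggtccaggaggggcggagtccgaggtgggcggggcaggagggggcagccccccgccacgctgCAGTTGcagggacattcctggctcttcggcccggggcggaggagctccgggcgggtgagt
Spry1: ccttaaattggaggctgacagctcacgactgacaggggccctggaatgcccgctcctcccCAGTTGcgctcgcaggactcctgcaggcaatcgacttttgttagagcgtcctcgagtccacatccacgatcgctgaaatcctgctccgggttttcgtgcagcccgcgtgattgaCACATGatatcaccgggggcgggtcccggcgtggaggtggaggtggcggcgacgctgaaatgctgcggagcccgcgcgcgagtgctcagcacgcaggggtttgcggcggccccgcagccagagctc
Spry2: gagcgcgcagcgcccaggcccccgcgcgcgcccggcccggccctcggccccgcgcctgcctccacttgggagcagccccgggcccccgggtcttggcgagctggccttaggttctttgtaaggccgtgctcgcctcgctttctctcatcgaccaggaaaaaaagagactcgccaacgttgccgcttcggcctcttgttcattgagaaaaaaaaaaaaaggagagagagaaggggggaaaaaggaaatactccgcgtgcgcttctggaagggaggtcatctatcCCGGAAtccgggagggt
Fgfr4 and Spry1 hold 2 E-boxes each, and Spry2 holds 1 CCGGAA. Of 32851 promoters of this length, 72.3% hold an E-box and 14.9% hold CCGGAA, so an E-box is common and CCGGAA is not rare. A promoter sequence was matched for 7 of the 10 members, and each of the 7 holds an E-box in at least 1 window. CCGGAA was found for Fgfr4 and Spry2 alone among them, once in each, and these letters are a description of the window and not a measured binding site.

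The deposited tables hold counts of unique molecular identifiers (UMIs, which tag single RNA molecules) per gene and cell. There were 2816, 4067 and 8690 barcodes in control 1, control 2 and the mutant, with totals of 22624711, 27814907 and 63505144 UMIs, and 2069, 3697 and 7547 cells were kept. Pairs of libraries shared between 18 and 49 barcodes. Control 1 stood apart in that transcripts of muscle and blood were higher in its mesenchymal cells, with Actc1, a cardiac and embryonic muscle actin, at 54.8, 9.62 and 1.82 CPM (a gene's UMIs scaled to a common total of UMIs) in mesenchymal cells of control 1, control 2 and the mutant, and Hba-a1, an alpha globin, at 764, 285 and 72.2 CPM. Tgfbr1 itself was at 53.4, 60 and 48.3 CPM in mesenchymal cells, but a 3′ count reads the end of the transcript, and whether the floxed exon lies there is not given in the sources used here, so this does not check the label.

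Cells were gated by marker genes, and UMIs of all cells of a type were summed within a library and scaled by the total of those cells to give CPM. Where 3 values are given in a row, they are those of control 1, control 2 and the mutant. The gates held their own markers: Col1a1, the main bone and skin collagen, which no gate used, was at 1622, 1710 and 1648 CPM in mesenchymal cells and at 138, 51.6 and 80.9 CPM in myogenic cells. Myogenic cells were divided into progenitors (Pax7 or Myf5 and neither Myog nor Mymk) and differentiating myocytes (the reverse). Myl1, a muscle myosin light chain, was at 24.9, 2.75 and 6.09 CPM in progenitors and 453, 421 and 478 CPM in myocytes. It was used in neither definition of this division. It is among the 12 markers of the myogenic gate, though, so it is not an independent check. Cell types with at least 20 cells in a library entered the fits. Control 1 had 15 progenitors and 13 endothelial cells, so tests on these types rest on control 2 and the mutant.

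Fgfr1, the most widely used FGF receptor, was counted mainly in the mesenchyme. It was at 210, 222 and 188 CPM in mesenchymal cells, against 44.0, 37.1 and 44.3 CPM in epithelial cells and 68.5 and 54.4 CPM in the endothelial cells of control 2 and the mutant. The groups do not overlap. In the fit with the library as a block, Fgfr1 was 5.11-fold lower in epithelium than in mesenchyme (log2 difference -2.35, SE 0.21, edgeR quasi-likelihood test with Benjamini-Hochberg adjusted p = 6.39e-10) and 3.22-fold lower in endothelium (-1.69, SE 0.25, adjusted p = 3.37e-06). Where cells that held markers of several types were kept in the gates, the difference was -0.83 in epithelium (adjusted p = 0.273), and the endothelial one had an adjusted p of 0.0675.

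Within the mesenchyme, Fgfr1 levels of 3 types overlapped and osteogenic cells were lower. Midline cells (Lsp1, Wnt16, Sostdc1) had 238, 238 and 200 CPM, perimysial cells (Hic1 and Ebf2, the connective tissue around muscle) 192, 214 and 162 CPM, and mesenchymal cells without a subtype marker, called remaining mesenchyme, 197, 211 and 166 CPM. These ranges overlap. Osteogenic cells (Sp7, Ibsp, Ifitm5) had 168, 85.7 and 78.4 CPM, lower than the remaining mesenchyme of the same library in all 3, and the fitted log2 difference was -0.70 (SE 0.19, edgeR adjusted p = 0.00772). That call was lost without control 2 (-0.50, adjusted p = 0.170), without the mutant (-0.54, adjusted p = 0.190), without the library block (adjusted p = 0.138), with stricter gates (-0.47, adjusted p = 0.0819) and with mixed cells kept (-0.63, adjusted p = 0.364). In myogenic cells Fgfr1 was at 95.5, 45.4 and 50.8 CPM, and control 1, the highest, also had the highest Col1a1 in that gate (138 CPM).

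Fgfr2, the receptor for the ligands Fgf7 and Fgf10 in epithelia, had its highest mean in the epithelium. Epithelial cells had 83.3, 87.9 and 73.6 CPM and mesenchymal cells 33.6, 19.7 and 45.3 CPM, with no overlap. Fgfr2 was 2.44-fold higher in epithelium (log2 difference 1.28, SE 0.23, edgeR adjusted p = 5.68e-05). Endothelial cells of control 2 and the mutant had 8.57 and 3.32 CPM, a log2 difference of -2.71 from the mesenchyme (SE 0.49, adjusted p = 7.34e-05), which without the mutant was -1.41 with an adjusted p of 0.160. Krt6a-negative epithelial cells were close to each other across libraries, at 86.0, 88.7 and 85.8 CPM, while Krt6a-positive, periderm-like cells ranged from 32.7 CPM in the mutant to 86.2 CPM in control 2.

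Among the mesenchymal types, Fgfr2 was at 87.0, 42.9 and 50.0 CPM in osteogenic cells, 44.3, 21.3 and 41.0 CPM in the remaining mesenchyme and 20.1, 14.3 and 27.9 CPM in midline cells. In each library the osteogenic cells were above the remaining mesenchyme and the midline cells below it. Neither difference passed the test (osteogenic 0.85, adjusted p = 0.0699; midline -0.77, adjusted p = 0.499; edgeR). The osteogenic one passed in 8 of 13 alternatives, with adjusted p from 5.21e-04 with no filter on low counts to 0.279 without control 1, and the midline one in 2 of 14. In perimysial cells only 5, 0 and 10 UMIs of Fgfr2 were counted (9.13, 0 and 28.9 CPM), and 0 UMIs in control 2 allow a level of up to 10.7 CPM.

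Fgfr3, which restrains cartilage growth and is used in bone-forming cells, had its highest mean in osteogenic cells among the 13 gated types ranked. Cartilage cells, 10 and 13 in the controls, were too few to be ranked, and their level is not given here. Osteogenic cells had 28.2, 49.5 and 28.8 CPM against 5.16, 8.56 and 12.6 CPM in the remaining mesenchyme. All 3 osteogenic values were above all 3 others, and the difference was 3.58-fold (log2 1.84, SE 0.35, edgeR adjusted p = 2.04e-04). Epithelial cells, at 23.2, 14.7 and 15.5 CPM, were above the mesenchyme as a whole, at 7.77, 6.85 and 14.3 CPM (log2 difference 0.83, SE 0.33, adjusted p = 0.0486). This epithelial call sat at the threshold: it was lost without control 1 (adjusted p = 0.355), without control 2 (adjusted p = 0.188) and without the library block (adjusted p = 0.140), and DESeq2 gave an adjusted p of 0.277. Endothelial cells had 0 and 1.33 CPM in control 2 and the mutant, and were lower than mesenchyme (-3.43, SE 0.82, adjusted p = 7.45e-04; without the mutant adjusted p = 0.0557). In macrophages no Fgfr3 UMI was counted in any library.

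**Figure D1:**
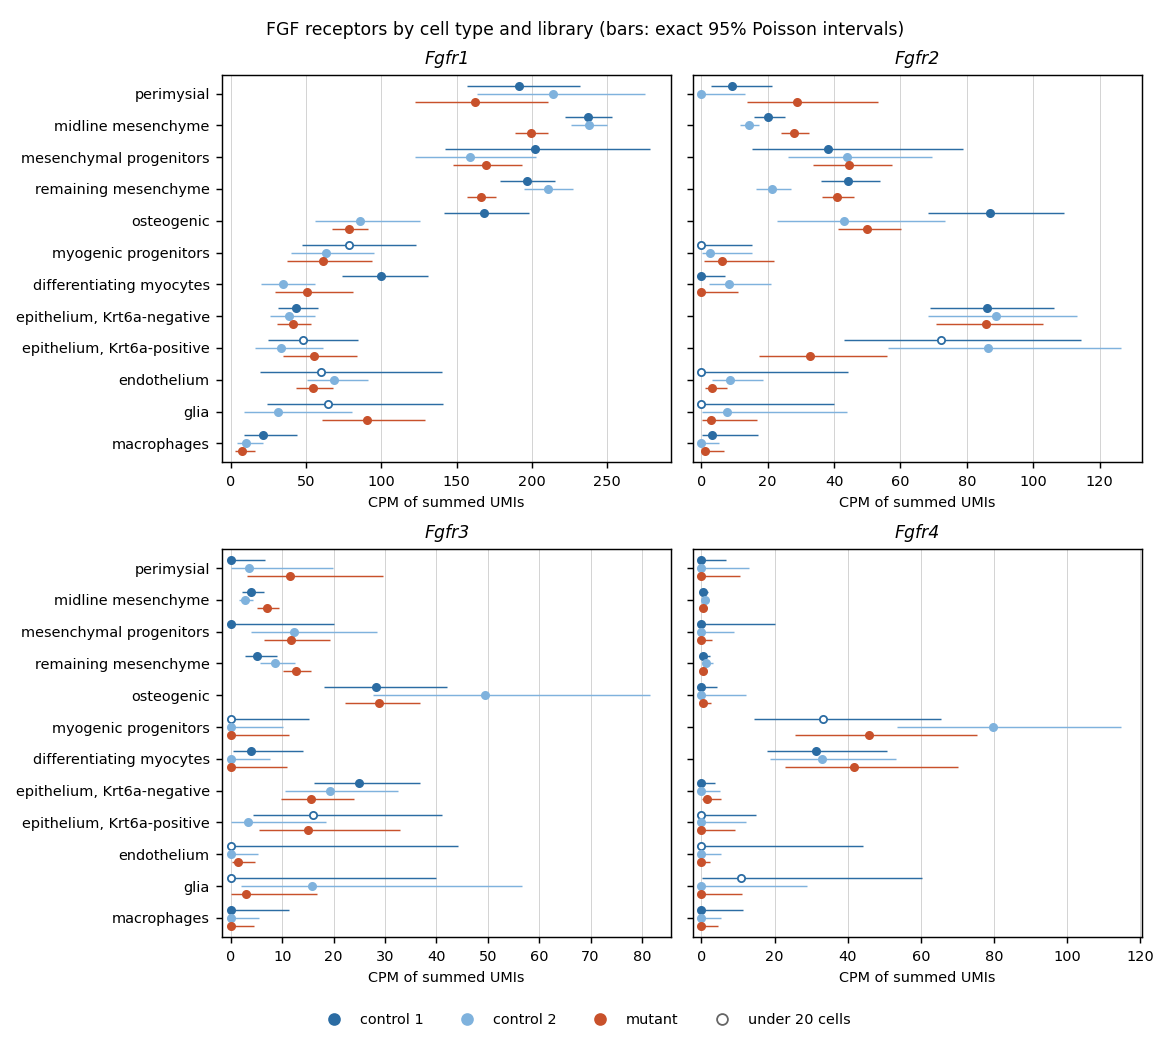
CPM of Fgfr1, Fgfr2, Fgfr3 and Fgfr4 (horizontal axes, 1 panel a gene) in gated cell types (rows), 1 point a library with its exact 95% Poisson interval. Cartilage cells are not shown. Open symbols are cell types with under 20 cells in that library. Fgfr1 points lie highest in the mesenchymal types, Fgfr2 in epithelium, Fgfr3 in osteogenic cells and Fgfr4 in the myogenic types, where it was 39.3, 47.1 and 48.5 CPM over all myogenic cells.

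Fgfr4 had its highest level in muscle cells. Of 70, 89 and 93 Fgfr4 UMIs in all kept cells of control 1, control 2 and the mutant, myogenic cells held 42, 53 and 42. Cells with markers of several types held 21, 17 and 10 of the rest (2.84, 3.08 and 0.711 CPM), and cells in no gate 0, 6 and 22 (0, 2.79 and 3.61 CPM). Myogenic cells of control 1 held 42 UMIs of it, or 39.3 CPM, with an exact 95% Poisson interval from 28.3 to 53.1. Those of control 2 held 53 UMIs, or 47.1 CPM, with an interval from 35.3 to 61.7, and the mutant's held 42 UMIs, or 48.5 CPM, from 35.0 to 65.6. The 3 intervals overlap throughout. In mesenchymal cells it was at 0.622, 0.948 and 0.630 CPM, from 6, 13 and 17 UMIs, and no UMI was found in perimysial cells, mesenchymal progenitors, endothelial cells or macrophages of any library. A count of 0 in perimysial cells allows up to 5.48, 10.7 and 8.68 CPM, below the myogenic levels. Fgfr4 was not tested between these types, and the part of muscle RNA from other cells in the mesenchymal counts was not tested.

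Cell by cell, an Fgfr4 UMI was found in 34.6%, 31.5% and 27.3% of myogenic cells, whose median depths were 14051.5, 8004.5 and 6726 UMIs. At an equal depth of 2000 UMIs a cell, the shares were 6.49% of 77 cells (exact Clopper-Pearson 95% interval 2.14 to 14.507), 6.56% of 122 cells (2.87 to 12.5) and 9.24% of 119 cells (4.70 to 15.9), with overlapping intervals. These intervals cover counting error only. Thinned mesenchymal cells held one in 0.175%, 0.138% and 0.239%. Macrophages, which should lack the gene, held none in 71, 102 and 141 cells at median depths of 2762, 5830.5 and 5160 UMIs, which allows shares of cells with a UMI of up to 4.23%, 2.94% and 2.13% and sets no limit on cells that express the gene.

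Fgfr4 was then compared between muscle progenitors and differentiating myocytes. The 15 progenitors of control 1 held 8 UMIs, or 33.2 CPM (interval 14.3 to 65.4). The 35 progenitors of control 2 held 29 UMIs, or 79.8 CPM (53.4 to 115), and the mutant's 44 held 15 UMIs, or 45.7 CPM (25.6 to 75.4). Myocytes had 31.2 CPM (17.9 to 50.7), 32.8 CPM (18.8 to 53.3) and 41.8 CPM (22.9 to 70.2), from 16, 16 and 14 UMIs. The progenitor value was above the myocyte value in each library, clearly so in control 2, while in the other libraries the intervals overlap. The log2 difference was 0.45 (SE 0.57, edgeR unadjusted p = 0.434, adjusted p = 0.784), so a difference was not detectable at this depth. The sign of this fitted difference rests on control 2. Without control 2 the fit gave -0.06, although the mutant's CPM was slightly higher in progenitors. The size of the difference depended on the gate, since it was 1.79 with stricter gates (adjusted p = 0.166) and 0.80 with mixed cells kept. With types of at least 10 cells admitted, which brings in control 1, it was 0.38 (adjusted p = 0.774). It passed in 0 of 13 alternatives.

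Whether a myogenic cell was dividing (at least 3 of 8 mitotic genes such as Mki67 and Top2a) was set beside the same gene. Dividing myogenic cells had 48.2, 68.4 and 47.6 CPM of Fgfr4 and the others 18.6, 17.2 and 49.6 CPM. Dividing cells were higher in both controls, from 36 and 45 UMIs against 6 and 8, and level in the mutant, from 22 against 20. No test was run. In control 1, 12 of 15 progenitors were dividing, against 47 of all 78 myogenic cells. In control 2, 31 of 35 progenitors were, against 63 of all 124, so this division overlaps that into progenitors and myocytes. Mki67 over all progenitors was at 37.3, 149 and 73.1 CPM, highest in control 2, where Fgfr4 was highest too; its part in the Fgfr4 values was not tested.

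Fgfr4 over the whole library, all cells together, was at 3.35, 3.53 and 1.70 CPM. The mutant library was lowest and its myogenic cells made up 1.60% of its cells, against 3.77% and 3.35% in the controls, while the level within myogenic cells was as given above. These shares depend on the gate. Cells set aside for markers of several types made up 20.9%, 8.74% and 9.55% of cells. With mixed cells kept, myogenic cells made up 10.8% of cells in control 1 and 3.79% in control 2. Fewer muscle cells in the tissue and fewer muscle cells captured cannot be told apart in these libraries.

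Over 38 points, each a cell type in a library, the genes whose log2(CPM + 1) was most like that of Fgfr4 were Mrln (Pearson r = 0.92), Rbm20 (0.91), Mstn (0.91), Vgll2 (0.91) and Pitx3 (0.90). Mrln encodes a micropeptide of muscle calcium handling, Rbm20 a splicing factor of muscle, Mstn the muscle growth inhibitor myostatin, and Vgll2 and Pitx3 transcription regulators found in muscle. The points share libraries and depth, and few of them are muscle, so r mainly describes presence in the myogenic gate. For Fgfr1 the most similar were Angptl1, Tmem263 and Mfap2 (0.88 each), for Fgfr2 Bcl11b (0.78), Ptpru (0.77) and Sema3d (0.76), and for Fgfr3 Ints2, Sema3d and Sox6 (0.75, 0.75 and 0.74). Among the feedback genes, the most similar was Syne2 for Spry1 (0.79), Hmgb1 for Spry2 (0.85), Tcf4 for Spry4 (0.74), Tut7 for Dusp6 (0.71), Ephb1 for Etv4 (0.68) and Maf1 for Etv5 (0.73). Among the members themselves, Fgfr2 and Fgfr3 were the closest pair (r = 0.68) and Spry1 and Spry2 came next (0.65).

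**Figure D2:**
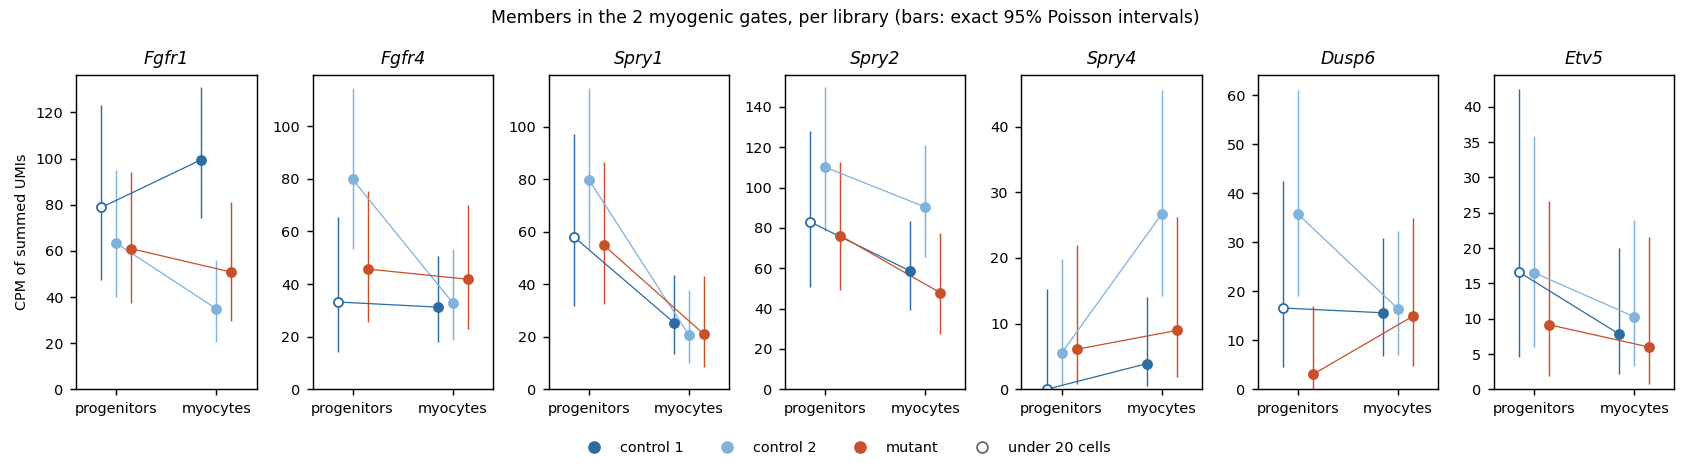
CPM of 7 members (vertical axes, 1 panel a gene) in myogenic progenitors and differentiating myocytes (horizontal axes), 1 symbol a library joined by a line, with exact 95% Poisson intervals; open symbols mark the 15 progenitors of control 1. Spry1 lies lower in myocytes in all 3 libraries (58.1, 79.8 and 54.8 to 25.4, 20.5 and 20.9 CPM), while Fgfr4 separates in control 2 alone.

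Spry1, an intracellular inhibitor of receptor tyrosine kinase signaling known from quiescent adult muscle stem cells, was higher in progenitors than in myocytes. Progenitors had 58.1, 79.8 and 54.8 CPM (14, 29 and 18 UMIs) and myocytes 25.4, 20.5 and 20.9 CPM (13, 10 and 7 UMIs). All progenitor values were above all myocyte values. The difference was 2.50-fold (log2 1.32, SE 0.41, edgeR adjusted p = 0.0408), and it was 1.35 with an adjusted p of 0.0180 where control 1 was admitted. With only 1 library holding both types, the call was lost (without control 2, 1.18, adjusted p = 0.484; without the mutant, 1.31, adjusted p = 0.287), and without the library block the adjusted p was 0.0902.

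Spry1 was the only one of the 9 tested members to pass between progenitors and myocytes, with none lower, where 1.91% of the 11291 genes tested were higher and 4.38% lower. The median log2 difference of the members was 0.39, against -0.06 over all genes tested. Etv4 did not pass the filter on low counts in this fit. Of 31 other genes of the pathway, 25 were tested: Ccnd1 (cyclin D1, which drives entry into the cell cycle) was higher in progenitors (log2 difference 1.98, adjusted p = 0.0397), and Shisa2, which holds back maturation of FGF and WNT receptors in the endoplasmic reticulum, was lower (-2.73, adjusted p = 0.00325). Spry2 (83.0, 110 and 76.2 CPM in progenitors; 58.6, 90.3 and 47.8 CPM in myocytes) was higher in progenitors within each library, by a fitted log2 of 0.39 that did not pass (adjusted p = 0.652). Dusp6 and Etv5 were counted at 13 UMIs or fewer in each of these groups.

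Among the mesenchymal types, Spry1 was lowest in osteogenic cells, at 8.23, 0 and 4.06 CPM against 17.2, 35.5 and 19.8 CPM in the remaining mesenchyme. The groups did not overlap, and the log2 difference was -2.01 (SE 0.39, edgeR adjusted p = 1.21e-04; without the mutant -1.89, adjusted p = 0.0787). Perimysial cells had 18.3, 85.6 and 40.5 CPM, a wide spread in which the 2 controls were the lowest and the highest, and the difference from the remaining mesenchyme did not pass (0.73, adjusted p = 0.328). Epithelial cells had 41.6, 48.9 and 38.5 CPM and mesenchymal cells 25.4, 40.1 and 23.3 CPM; epithelium was higher within each library (0.52, SE 0.20, adjusted p = 0.0351), a call lost without control 1 (adjusted p = 0.0967), without the mutant (adjusted p = 0.148) without the block (adjusted p = 0.176) and with mixed cells kept (adjusted p = 0.243).

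Spry2, the Sprouty gene whose loss in mice disturbs palate closure, was counted in nearly all types. In perimysial cells it was at 148, 96.3 and 92.6 CPM, in Krt6a-negative epithelial cells at 100, 158 and 64.9 CPM and in myogenic cells at 89.8, 102 and 65.8 CPM. These groups overlap. Osteogenic cells were low, at 23.5, 29.7 and 8.56 CPM against 70.1, 106 and 32.8 CPM in the remaining mesenchyme (log2 difference -1.76, SE 0.29, edgeR adjusted p = 3.23e-05). Within each library the osteogenic value was under the other. The perimysial difference was 0.74 (adjusted p = 0.136); it passed in 4 of 13 alternatives, among them without control 2 (1.20, adjusted p = 0.0125), and was -0.10 with stricter gates. Epithelium and mesenchyme did not differ beyond the spread (0.43, adjusted p = 0.117). Macrophages, at 9.20, 4.41 and 14.6 CPM, had the lowest mean of the 13 gated types ranked, those with at least 20 cells in at least 2 libraries.

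Spry4, the third Sprouty gene measured, was low. Endothelial cells had 24.0, 29.98 and 14.6 CPM (2, 21 and 22 UMIs), mesenchymal cells 5.80, 9.55 and 5.41 CPM and epithelial cells 2.40, 0.977 and 2.30 CPM. The 3 lineages did not overlap. Endothelium was 2.87-fold higher than mesenchyme (log2 1.52, SE 0.40, edgeR adjusted p = 0.00219; without control 2 1.42, adjusted p = 0.133) and epithelium 3.36-fold lower (-1.75, SE 0.53, adjusted p = 0.00749; without control 2 -1.26, adjusted p = 0.210; with mixed cells kept -1.01, adjusted p = 0.0520; with thinned cells -1.05, adjusted p = 0.485). Perimysial cells had 3.65, 49.9 and 14.47 CPM from 2, 14 and 5 UMIs. That difference from the remaining mesenchyme did not pass (1.81, adjusted p = 0.102), and it ranged from 0.25 with stricter gates (adjusted p = 0.977) to 2.25 without control 1, the lowest library (adjusted p = 0.0193), passing in 3 of 13 alternatives.

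**Figure D3:**
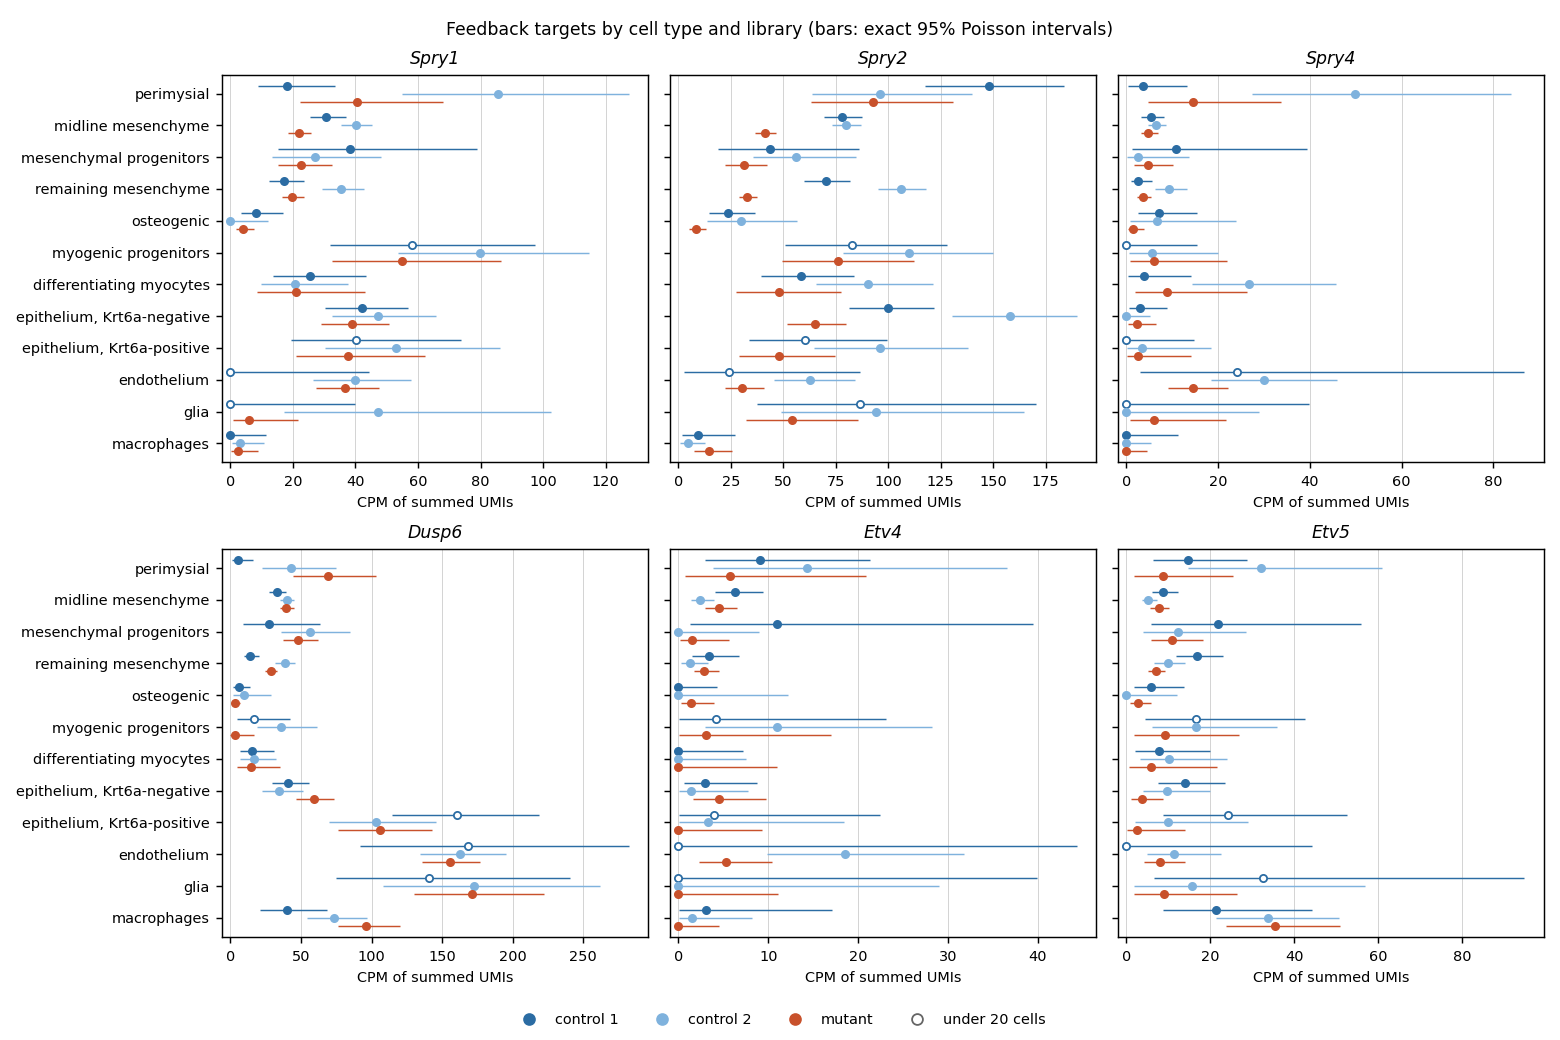
CPM of the feedback genes Spry1, Spry2, Spry4, Dusp6, Etv4 and Etv5 (horizontal axes, 1 panel a gene) in each gated cell type (rows), 1 point a library with its exact 95% Poisson interval; open symbols are under 20 cells. Osteogenic cells are among the lowest types for Spry1, Spry2, Dusp6 and Etv5, and endothelial and glial cells are highest for Dusp6 (163 and 155, and 173 and 171 CPM, in control 2 and the mutant).

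Dusp6, whose product dephosphorylates ERK, was highest in glial and endothelial cells. Glial cells (Sox10 among their 7 markers) had 173 and 171 CPM in control 2 and the mutant, and 141 CPM from 8 cells of control 1. Endothelial cells had 168 CPM from 13 cells, 163 and 155 CPM, against 22.7, 40.6 and 37.1 CPM in the mesenchyme. The endothelial values were above every mesenchymal one, 4.38-fold in the fit (log2 2.13, SE 0.21, edgeR adjusted p = 1.70e-10). Epithelial cells, at 64.9, 54.7 and 69.6 CPM, were also higher than mesenchyme (0.90, SE 0.20, adjusted p = 3.41e-04; with mixed cells kept 0.57, adjusted p = 0.118; with thinned cells 0.62, adjusted p = 0.0813). Within the epithelium, Krt6a-positive cells had 161, 103 and 106 CPM and Krt6a-negative cells 41.0, 34.6 and 58.9 CPM, with no overlap, a pair that was not tested.

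Osteogenic cells had the lowest mean level of Dusp6 among the mesenchymal types, at 5.88, 9.89 and 3.61 CPM against 14.2, 38.4 and 28.5 CPM in the remaining mesenchyme (log2 difference -2.33, SE 0.46, edgeR adjusted p = 4.86e-04; without the mutant -1.64, adjusted p = 0.0930). Perimysial cells had 5.48, 42.8 and 69.4 CPM, from 3, 12 and 24 UMIs. Control 1 was far below the other libraries, and the type did not differ beyond its spread from the remaining mesenchyme (0.29, adjusted p = 0.872). Macrophages had 39.8, 73.5 and 96.3 CPM, lowest in control 1.

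Etv4 and Etv5, the ETS factors, were sparse. Etv4 reached 18.6 and 5.31 CPM (13 and 8 UMIs) in endothelial cells of control 2 and the mutant and was between 3.06 and 5.18 CPM in the mesenchyme. Endothelium was higher (log2 1.48, SE 0.58, edgeR adjusted p = 0.0394; 0.0748 without the library block and 0.112 in DESeq2). Etv5 had its highest mean in macrophages, at 21.5, 33.8 and 35.3 CPM, and was at 13.1, 8.38 and 11.4 CPM in mesenchymal cells. Osteogenic cells had 5.88, 0 and 2.70 CPM against 16.8, 9.83 and 6.95 CPM in the remaining mesenchyme, with no overlap (-1.43, SE 0.48, adjusted p = 0.0294). The osteogenic call was lost when any 1 library was left out (adjusted p = 0.108 without control 1, 0.139 without control 2 and 0.188 without the mutant) and without the block (0.0772), and it was 0.587 with stricter gates and 0.0554 in DESeq2.

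Osteogenic cells had 4 of the 6 feedback genes lower, while Spry4 did not pass (5.002 and 5.13 CPM in the mean, log2 difference -0.11, edgeR adjusted p = 0.952) and Etv4 was not tested. The osteogenic counts were small for Spry1 (7, 0 and 9 UMIs), Dusp6 (5, 3 and 8) and Etv5 (5, 0 and 6). Of 9 tested members, 1 was higher than in the remaining mesenchyme (Fgfr3) and 5 were lower (Fgfr1, Spry1, Spry2, Dusp6 and Etv5), where 7.43% of all genes tested were higher and 9.22% lower. The median log2 difference of the members was -0.89 against -0.12 over all genes. Of the 25 other pathway genes tested, 2 were higher and 6 lower. The 4 with the smallest adjusted p were Flrt2 and Flrt3, membrane proteins that bind FGF receptors (-1.72, adjusted p = 5.57e-09, and -0.81, adjusted p = 0.00337), Shisa3 (-2.30, adjusted p = 0.00128) and Ccnd1, which was higher (1.23, adjusted p = 0.00350).

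In epithelium 4 of the 10 members were higher than in mesenchyme (Fgfr2, Fgfr3, Spry1 and Dusp6) and 2 lower (Fgfr1 and Spry4), where 15.3% of 12698 genes were higher and 20.3% lower. In endothelium 3 were higher (Spry4, Dusp6 and Etv4) and 3 lower (Fgfr1, Fgfr2 and Fgfr3), where 16.8% of genes were higher and 20.1% lower. The other feedback genes, Spry1 (0.38), Spry2 (-0.52) and Etv5 (-0.13), were not called in endothelium, and neither was Fgfr4. Members' medians were 0.05 in epithelium and -0.32 in endothelium, against -0.12 and -0.16 over all genes. Both comparisons share the mesenchyme as their reference. Of 26 other pathway genes tested, 1 was higher and 8 lower in epithelium (Flrt2 -1.84, Flrt3 -1.79, Ccnd1 -1.73 and Egr1, an immediate early target of ERK, -0.79, with adjusted p of 6.50e-12, 4.25e-09, 2.70e-07 and 1.95e-05). In endothelium 3 were higher and 8 lower, with Flrt3 (-2.55, adjusted p = 2.22e-09) and Egr1 (-1.46, adjusted p = 5.45e-09) lower and Mapk3, which encodes the kinase ERK1, higher (1.45, adjusted p = 1.99e-07). Shisa3, the other of the 4 with the smallest adjusted p there, had no UMI in the endothelial cells that entered the fit.

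No member passed in perimysial or midline cells against the remaining mesenchyme in the fit over all types, though some passed in alternatives given below. In perimysial cells 0.744% of genes were higher and 0.452% lower, and 3 members had an unadjusted p under 0.05 in the higher direction (Spry1, 0.0216; Spry2, 0.00371; Spry4, 0.00214) and Fgfr2 in the lower (0.0101), 4 of 9 in all, where 4.61% of all genes were higher and 6.37% lower at that unadjusted level. DESeq2 gave these 4 adjusted p between 0.174 and 0.270. With no filter on low counts and with only the 2 types in the fit, Spry2 (adjusted p = 0.0311 and 0.0333), Spry4 (0.00930 and 0.00389) and Fgfr2 (0.00258 and 0.00806) passed. Among 25 other pathway genes, Shisa3 (2.88, edgeR adjusted p = 9.99e-09) and Shisa2 (1.76, adjusted p = 0.0358) were higher and Myc lower (-1.44, adjusted p = 0.0496). Perimysial Shisa3 was at 5.48, 96.3 and 139 CPM, so control 1 was low there as it was for Dusp6 and Spry4. In midline cells 0.345% of genes were higher and 0.23% lower; Fgfr2 (unadjusted p = 0.0120) and Fgfr3 (0.00476) had lower and Dusp6 (0.0438) higher values at that level, 3 of 9 in all, where 2.75% of genes were higher and 2.72% lower at that unadjusted level. Each had an adjusted p of 1 in DESeq2, while Fgfr2 (adjusted p = 0.00605 and 1.66e-04) and Fgfr3 (0.0239 and 0.00810) passed with no filter on low counts and with only the 2 types in the fit, and Flrt2 alone of the other pathway genes passed (0.59, adjusted p = 0.0447).

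**Figure D4:**
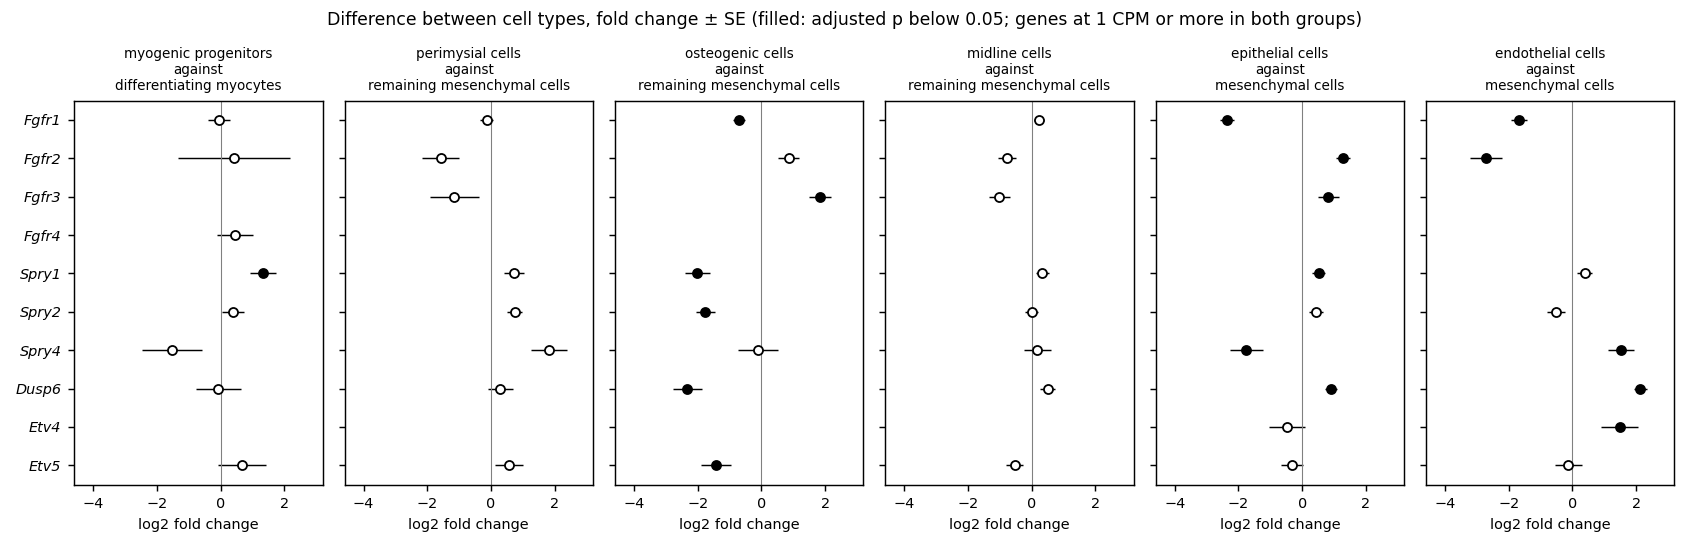
Log2 differences of the members (horizontal axis, first type minus second; bars are 1 SE) in each comparison of cell types (panels), for members at 1 CPM or more in both types, with filled symbols for edgeR adjusted p under 0.05. Filled symbols stand at 2.13 for Dusp6 in endothelium and at -2.33 for Dusp6 in osteogenic cells, and none stands in the perimysial or midline comparison.

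The last comparison set the mutant library against the controls within each cell type. With 1 mutant library the spread among mutants is not measured and there is no test, so the log2 ratio of the mutant to the mean of the controls is given beside the gap between the controls on the same scale. A gene is called here when the mutant lies outside both controls by a ratio of at least 0.5 that is also larger than the gap, among genes with at least 30 UMIs in that type. Where a control is left out there is no gap, and the other conditions apply to the libraries kept. The median ratio over all genes was between -0.12 and -0.04 in the 6 types. Scaling by TMM factors in place of totals shifted it up by 0.13 in mesenchyme, 0.04 in perimysial, 0.11 in midline, 0.23 in osteogenic, 0.13 in epithelial and 0.12 in myogenic cells. Higher genes made up 26.4%, 17.9%, 29.5%, 20.6% and 22.0% of calls in mesenchyme, midline, osteogenic, epithelial and myogenic cells, and 46.3%, 35.9%, 62.6%, 45.2% and 39.5% with TMM factors; no member called below changed direction with that scaling.

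Spry2 was lower in the mutant library than in both controls in each of the 6 types, and was called in 5 of them. The 6 types are not separate, since the mesenchymal cells include the perimysial, midline and osteogenic cells. Of all genes with enough UMIs, 11.5% were called lower in mesenchyme, 13% in midline, 13.9% in epithelial and 17.9% in myogenic cells. In osteogenic cells 1129 of 7803 were called lower. Mesenchymal cells of control 1 held 844 UMIs, or 87.5 CPM (81.7 to 93.6), and those of control 2 held 1161 UMIs, or 84.6 CPM (79.8 to 89.6). The mutant's held 1038 UMIs, or 38.5 CPM (36.2 to 40.9). The controls' intervals overlap and the mutant's lies far below both: the log2 ratio was -1.16 beside a gap of 0.05. Midline cells had 78.1, 80.0 and 41.2 CPM (-0.94; gap 0.03) and osteogenic cells 23.5, 29.7 and 8.56 CPM (-1.63; gap 0.34). Epithelial cells had 92.1, 140 and 61.0 CPM (-0.90; gap 0.60), and myogenic cells 89.8, 102 and 65.8 CPM (-0.54; gap 0.19). In perimysial cells the ratio was -0.37 beside a larger gap, 0.62, with the mutant, at 92.6 CPM, next to control 2, at 96.3 CPM. The call stood in 9 of 9 alternatives in mesenchyme, midline and epithelium and in 7 of 9 in osteogenic cells (not without control 1, -1.79, nor with thinned cells, -1.57). In myogenic cells it stood in 4 of 9 alternatives and was lost in most. Among the losses were those without control 2 (-0.45) and with TMM factors (-0.42). The myogenic ratio ranged from -2.37 to -0.42 over the alternatives. Without control 1 the osteogenic libraries held under 30 UMIs of Spry2, so no call was possible there.

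Spry2 was counted in 31.1%, 30.7% and 15.6% of mesenchymal cells before thinning, at median depths of 7708, 5153 and 5453 UMIs, and in 13.9%, 15.7% and 6.28% of cells thinned to 2000 UMIs. In thinned macrophages it was counted in 2.38%, 2.11% and 1.45%. The mutant's mesenchymal share was thus the lowest at equal depth and above the macrophage share. The mutant was lowest both in dividing mesenchymal cells (92.8, 84.1 and 43.0 CPM) and in the rest (83.8, 85.1 and 34.7 CPM).

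Over all mesenchymal cells together, Fgfr2 and Fgfr3 were called higher in the mutant library. Fgfr2 was at 33.6, 19.7 and 45.3 CPM (ratio 0.82; gap 0.77), so the mutant lay above both controls by little more than they lay apart, and without control 2 the ratio was 0.43. Fgfr3 was at 7.77, 6.85 and 14.3 CPM (0.97; gap 0.18), and the ratio was 0.27, not called, where cells were thinned to 2000 UMIs. Osteogenic cells, where both receptors were high, made up 3.82%, 0.839% and 3.29% of all cells. Of 324, 270 and 1222 Fgfr2 UMIs in mesenchymal cells, osteogenic cells held 74, 13 and 111. Midline cells held 76, 95 and 174, the remaining mesenchyme 103, 67 and 283, and perimysial cells 5, 0 and 10. The other UMIs lay in other mesenchymal cells, among them those with markers of several subtypes. In the mutant these other UMIs outnumbered those of the listed types together, while in both controls they were fewer. The Fgfr2 level of those other cells is not given here. The part of the mix of cells in these values was not tested. In midline cells alone Fgfr2 was at 20.1, 14.3 and 27.9 CPM (0.72; gap 0.49; without control 2 0.47) and Fgfr3 at 3.97, 2.71 and 7.05 CPM (1.10; gap 0.55), from 15, 18 and 44 UMIs, which turned to -0.37 with thinned cells. In the remaining mesenchyme Fgfr2 was not outside the controls (44.3, 21.3 and 41.0 CPM), while Fgfr3 was called higher there (5.16, 8.56 and 12.6 CPM; 0.92, gap 0.73), where 3.15% of 11595 genes were higher, and in osteogenic cells neither was higher (Fgfr2 87.0, 42.9 and 50.0 CPM; Fgfr3 28.2, 49.5 and 28.8 CPM).

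In mesenchyme 2 of 10 members were called higher and 1 lower, where 4.12% of 14067 genes were higher and 11.5% lower. In midline cells 2 of 9 were higher and 2 lower (Spry2 and Spry1, the latter at 30.7, 40.1 and 21.8 CPM, ratio -0.69, without control 2 -0.49), where 2.83% were higher and 13% lower. In osteogenic cells 1 of 4 was lower and none higher, where 1129 of 7803 genes were lower and 6.05% higher. In the remaining mesenchyme 1 of 9 was higher (Fgfr3) and 2 lower (Spry2 and Etv5), where 3.15% were higher and 15.6% lower. Spry2 there was at 70.1, 106 and 32.8 CPM (ratio -1.39, gap 0.59). Etv5 there was at 16.8, 9.83 and 6.95 CPM (ratio -0.89, gap 0.77). In perimysial cells none of 4 was called, where 7.98% were higher and 15.6% lower; Dusp6 there was 5.48, 42.8 and 69.4 CPM with a gap between controls of 2.97. In cells that fell into no gate 3 of 9 members were called higher (Fgfr2, Fgfr3 and Etv4) and 1 lower (Spry2), where 3.46% of 11183 genes were higher and 14.8% lower. Fgfr1 had ratios of -0.20 in mesenchyme and -0.25 in midline cells, below the size called.

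Among epithelial cells 2 of 7 members with enough UMIs were called lower and none higher, where 13.9% of genes were lower and 3.62% higher. These were Spry2 and Etv5, the latter at 16.0, 9.77 and 3.45 CPM from 20, 10 and 6 UMIs (ratio -1.86; gap 0.71). With mixed cells kept the Etv5 ratio was 0.06, and it was not called with thinned cells (-1.55). It was -1.50 without control 1 and -2.21 without control 2, where under 30 UMIs were left and no call was possible. Fgfr2, the main epithelial receptor here, was at 83.3, 87.9 and 73.6 CPM and was not called. Myogenic cells had 3 of 7 called lower and none higher, where 17.9% were lower and 5.07% higher: Spry2, Dusp6 at 22.5, 26.7 and 9.24 CPM (24, 30 and 8 UMIs; ratio -1.41, gap 0.25) and Etv5 at 12.2, 14.2 and 8.09 CPM (13, 16 and 7 UMIs; -0.70, gap 0.23). That Etv5 ratio was 0.73 with thinned cells. It was -0.82 without control 1 and -0.59 without control 2, where under 30 UMIs were left and no call was possible. The Dusp6 call was over all myogenic cells together. In differentiating myocytes alone Dusp6 was level, at 15.6, 16.4 and 14.9 CPM, from 8, 8 and 5 UMIs, too few for the rule. Fgfr4 (0.17; gap 0.26) and Spry1 (-0.16; gap 0.42) in myogenic cells differed by less than the controls did.

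In mesenchyme 1 of 29 other pathway genes with enough UMIs was called higher and 0 lower, where 4.12% and 11.5% of all genes were. Perimysial cells had 3 of 20 higher and 1 lower (all genes 7.98% and 15.6%). Midline cells had 3 of 26 higher and 1 lower (all genes 2.83% and 13%). Osteogenic cells had 0 of 20 higher and 2 lower (all genes 6.05%, and 1129 of 7803). Epithelial cells had 1 of 23 higher and 2 lower (all genes 3.62% and 13.9%). Myogenic cells had 5 of 18 higher and 4 lower (all genes 5.07% and 17.9%). Fos and Egr1, immediate early genes that also answer to cell dissociation, were at 744, 653 and 912 CPM and 391, 372 and 439 CPM in mesenchyme, higher in the mutant by less than the size called. In myogenic cells both were called higher (Fos 266, 180 and 370 CPM; Egr1 226, 170 and 298 CPM), the opposite direction to Spry2, Dusp6 and Etv5 there. Their part in the members' values was not tested.

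Of the ligands, Fgf18 in mesenchymal cells was at 29.4, 16.8 and 5.41 CPM, a log2 ratio of -2.04 beside a gap of 0.81. In that type 11.5% of genes were called lower. Fgf10 was at 7.77, 7.80 and 7.71 CPM in mesenchymal cells. Fgf7 in perimysial cells was at 65.7, 39.2 and 34.7 CPM and Fgf9 in epithelial cells at 13.6, 37.1 and 51.8 CPM, neither called there. In myogenic cells Fgf9 was called higher (23.4, 19.6 and 41.6 CPM) and Fgf7 lower (9.36, 13.3 and 6.93 CPM). The shares of all genes called in that type were 5.07% higher and 17.9% lower.

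**Figure D5:**
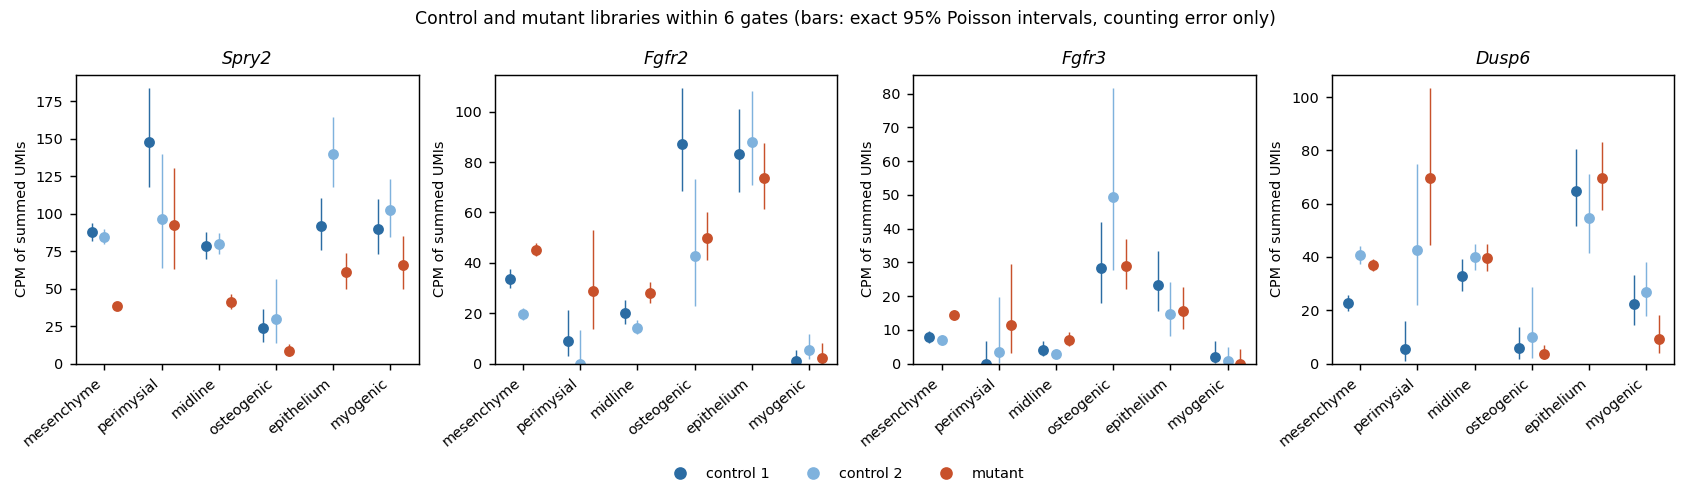
CPM of Spry2, Fgfr2, Fgfr3 and Dusp6 in control 1, control 2 and the mutant (colors; vertical axes; with exact 95% Poisson intervals) within 6 cell types (horizontal axes). The mutant is lowest for Spry2 in mesenchyme (38.5 against 87.5 and 84.6 CPM) and highest for Fgfr3 there (14.3 against 7.77 and 6.85 CPM).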

How the data were processed

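Posterior palates of E14.5 embryos were dissociated and profiled with 10x 3′ v2 chemistry in 3 libraries. The authors aligned reads to mm10 with Cell Ranger (version 4.0.0 in the protocol, 3.1.0 in the submitters' processing notes) and deposited UMI counts for each gene and barcode, not normalized. Which strand setting and filters were used is not given in the sources used here.

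Barcodes with under 500 genes or over 10% mitochondrial UMIs were removed, and the highest Scrublet scores were removed at 0.8% per 1000 barcodes, since Scrublet's own threshold called 0 doublets. Cells were gated by UMIs of marker genes; cells with markers of several types were set aside, and non-mesenchymal gates allow 1 mesenchymal marker (a condition set after the data were seen). Counts were summed per type and library. Depth was 5039 to 6986 UMIs per barcode in the median, and Poisson and Clopper-Pearson intervals (95%) cover counting error only; a count of 0 allows up to 3 UMIs.

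Cell types were compared with edgeR 4.0.16 (R 4.3.3) quasi-likelihood tests on the summed counts, with TMM factors, filterByExpr and the library as a block, since all types of a library share it; p was adjusted over all genes tested, by Benjamini-Hochberg, and called below 0.05. Epithelium and endothelium were fitted among lineages, and the other types among subtypes. DESeq2 1.42.0 served as an alternative, beside other filters, gates, scalings, thinned cells and leaving out each library. Control and mutant were compared as ratios without a test. The edgeR test was checked on simulated counts with known changes, for the perimysial comparison alone. Those counts held no library effect, a fixed spread and large changes in well-counted genes. The check thus does not cover small differences, sparse genes or comparisons with fewer libraries. All members are named; of 31 other pathway genes, the 4 with the smallest adjusted p in a comparison are named where they passed, with 4 ligands and the 5 most similar genes for Fgfr4 and up to 3 for each other member. Members, lists and tests were chosen with earlier results of these data known.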

Additional observations from a re-analysis of the deposited data

Results flagged for a closer look

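In cells that fell into no marker gate, which no comparison of cell types uses (148, 611 and 1782 cells in control 1, control 2 and the mutant), 3 of the 9 members with enough UMIs were called higher in the mutant by the same rule, where 3.46% of 11183 genes were. Fgfr3 was at 5.90, 4.19 and 16.9 CPM, from 4, 9 and 103 UMIs, a log2 ratio of 1.76. Etv4 was at 7.37, 8.85 and 12.6 CPM, from 5, 19 and 77 UMIs, a log2 ratio of 0.64. Fgfr2 was at 14.7, 14.4 and 22.0 CPM, from 10, 31 and 134 UMIs, a log2 ratio of 0.59. Fgfr4, with too few UMIs for the rule, was at 0, 2.79 and 3.61 CPM, from 0, 6 and 22 UMIs. There is 1 mutant library, so none of these was tested, and what the ungated cells are was not tested.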

How the results depend on the processing

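Between cell types, 310 values of members kept their direction and their side of the threshold, 21 came to pass it, 40 no longer passed and 2 reversed (Fgfr4 in progenitors without control 2, -0.0622; Spry2 in perimysial cells with stricter gates, -0.10). Leaving out the mutant instead gave 0.8345 for that Fgfr4 difference, in the direction of the report's 0.45. Of the ratios between mutant and controls, 90 moved by less than the spread, 24 by more and 3 reversed: Fgfr3 in midline cells (-0.37) and Etv5 in myogenic cells (0.73), both with cells thinned to 2000 UMIs, and Etv5 in epithelium with mixed cells kept (0.0567). The cause was not tested. The library block is the pairing used: all cell types of a library were sequenced together. Without the block, genes called numbered 25 in perimysial (135 with it), 769 in osteogenic (1880) and 6 in midline cells (65), and the calls of Spry1 in progenitors and epithelium, Fgfr1 and Etv5 in osteogenic cells, Fgfr3 in epithelium and Etv4 in endothelium were lost, as given above. Stricter gates gave 49 perimysial and 1163 osteogenic genes, no filter on low counts 297 perimysial and 190 midline, a fit of only the 2 types compared 362 perimysial and 622 midline, and DESeq2 15 midline. With mixed cells kept, an alternative chosen after seeing the data, 58 perimysial, 19 midline and 2090 epithelial genes (4521 in the report's fit) were called, and with thinned cells 1597 epithelial and 1835 endothelial ones (4692); thinned cells gave no value for the progenitor, osteogenic and perimysial comparisons. Leaving out 1 library gave 107 to 709 genes for progenitors (710 with all), 54 to 96 for perimysial, 540 to 1874 for osteogenic, 18 to 35 for midline, 2904 to 3897 for epithelial and 2579 to 4897 for endothelial cells. Members called between mutant and controls numbered, without 1 library, 3 to 6 in mesenchyme (3 with all), 1 to 2 in perimysial (0), 3 to 6 in midline (4), 1 to 3 in osteogenic (1), 1 to 2 in epithelial (2) and 2 in myogenic cells (3). Perimysial cells had 1 with the mean over cells, doublets kept, a minimum of 200 genes or stricter gates. Thinned cells gave 2 in midline, 0 in osteogenic, 1 in epithelial and 1 in myogenic cells, where the mean over cells also gave 1. Shares of myogenic cells with an Fgfr4 UMI went from 34.6%, 31.5% and 27.3% to 6.49%, 6.56% and 9.24% with thinning. Depth limits Etv4, Etv5 and Spry4, Spry1 and Dusp6 in osteogenic cells, and any member in perimysial cells and muscle subtypes, where few UMIs were counted.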

Other observations

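Beyond the gated types, Spry2 in ungated cells was 66.4 CPM in the mutant, against 143 CPM and 170 CPM in the controls, a log2 ratio of -1.23, where 14.8% of genes were called lower in those cells. Tendon-like cells (Scx and Tnmd) numbered 2, 16 and 69, so only the mutant reached 20 cells: there Fgfr1 was at 220 CPM, Spry1 at 66.4 CPM, Spry2 at 81.7 CPM and Spry4 at 25.5 CPM, from 86, 26, 32 and 10 UMIs. Neuronal cells numbered 8, 7 and 268, and in the mutant they had 34.4 CPM of Fgfr1, 51.2 CPM of Spry2 and 8.36 CPM of Dusp6, from 70, 104 and 17 UMIs. The mutant and the controls were not compared in either type.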
